A study of Homo sapiens with 8 samples.

Results

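The genes described here were transcribed less in oncogene-induced senescent fibroblasts than in control fibroblasts, and less again when METTL3 or METTL14 was knocked down in the senescent cells. They were chosen by their measured values: of the 27945 rows of the count table, 145 met the rule. The rule asked for at least 100 counts summed over the 8 libraries, an shControl mean of at most 0.6 times the control mean, and a mean of each knockdown of at most 0.6 times the shControl mean. In addition, every control library had to exceed both shControl libraries, and these every knockdown library. The order and the size of these falls are therefore properties of the choice and were not tested. Nascent RNA was measured by fastGRO-seq, a nuclear run-on assay in which engaged polymerases extend their transcripts with a labeled nucleotide, so that reads report ongoing transcription across exons and introns. The cells were IMR90 ER:RAS, primary human lung fibroblasts with an oncogenic RAS fused to the estrogen receptor, which 4-hydroxytamoxifen (4-OHT) activates. The 4 groups of 2 libraries were control cells, labeled without an shRNA, and senescent cells (100 nM 4-OHT, day 6) that carried shControl, shMETTL3 or shMETTL14. All groups carried the ER:RAS transgene, while no shRNA is given for the control cells and the shRNAs came by lentivirus with puromycin selection, so senescence and infection cannot be told apart in that comparison.

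Cellular senescence is a stable arrest of the cell cycle in which genes for DNA replication and mitosis are shut down while inflammatory and matrix-remodelling genes are induced. METTL3 is the catalytic subunit of the complex that writes m6A on RNA, and METTL14 is its RNA-binding partner. Lung fibroblasts are known for making collagens, proteoglycans and other matrix proteins, for receiving lysophosphatidic acid, PDGF and WNT signals, and for sharing part of their contractile program with smooth muscle cells.

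The libraries held 1513348 to 2048062 counts outside the 24 rows that the rule left out, of which 21 were ribosomal RNA and took 86.2% to 92.5% of each library. Levels are given as CPM, counts scaled to the kept counts of their library. METTL3 lay at 8.78 and 9.28 CPM in the shMETTL3 libraries against 50.9 and 29.8 CPM with shControl, and METTL14 at 10.9 and 8.86 CPM in the shMETTL14 libraries against 15.9 and 17.8 CPM. The METTL14 values rest on few counts, 18 and 14 with shMETTL14 and 24 and 28 with shControl. METTL14 lay at 32.2 and 28.9 CPM in control cells and at 22.5 and 23.4 CPM with shMETTL3. The 10 markers of lung fibroblasts all had at least 100 counts and summed to 13590 to 14580 CPM in control cells and to 4623 to 7270 CPM in the senescent groups, and DCN, which is on that list, is itself among the 145 genes. Of the markers of other cell types, 2 of 8 epithelial, 1 of 7 endothelial, 1 of 8 leukocyte, 5 of 7 smooth muscle and pericyte and 2 of 7 neural genes had at least 100 counts, while EPCAM, SFTPC, ESRP1, PECAM1, CDH5, CD3E and CD79A had 3 or fewer over all libraries. Summed leukocyte markers lay at 9.66 and 11.6 CPM in control cells, 44.9 and 31.1 CPM with shControl, 25.3 and 16.1 CPM with shMETTL3 and 31.5 and 28.5 CPM with shMETTL14. Epithelial markers lay at 20.3 to 33.7 CPM in control and shControl libraries, 13.2 and 12.7 CPM with shMETTL3 and 55.2 and 43.0 CPM with shMETTL14, and endothelial markers at 62.3 and 69.9 CPM in control cells, 34.0 to 36.6 CPM with shControl and shMETTL3 and 10.3 and 19.0 CPM with shMETTL14. Smooth muscle and pericyte markers lay at 278.9 to 352.8 CPM in control and shControl libraries and at 162.1 to 227.9 CPM in the knockdown libraries, and neural markers at 202.4 to 228.6 CPM in all libraries but those of shMETTL14, which had 412.9 and 356.1 CPM. The part of these sums in the results was not tested. Fewer cells of a type and less RNA per cell cannot be told apart in bulk samples. All levels are relative to the rest of the same library, since no use was made of the spike-in.

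Of the 11060 kept genes with at least 100 counts, 1725 met the senescence step of the rule. After knockdown, 145 of these 1725 genes, or 8.41%, met the rest of the rule, while 81, or 4.70%, did the reverse, with both knockdown means above shControl by the same factor and all 4 knockdown libraries above both shControl libraries. The shMETTL3 mean alone was at or below 0.6 times shControl for another 214 genes and the shMETTL14 mean alone for 179. Over the 145 genes, the median level in shControl cells was 29.9% of that in control cells, with a range from 9.35% to 59.8%. The median level was then 34.7% of shControl with shMETTL3 and 30.4% of shControl with shMETTL14, which left medians of 9.95% and 9.46% of the control level. These genes held 1.56% of the kept counts in each control library, 0.425% and 0.552% in the shControl libraries and 0.164% to 0.188% in the knockdown libraries.

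**Figure D1:**
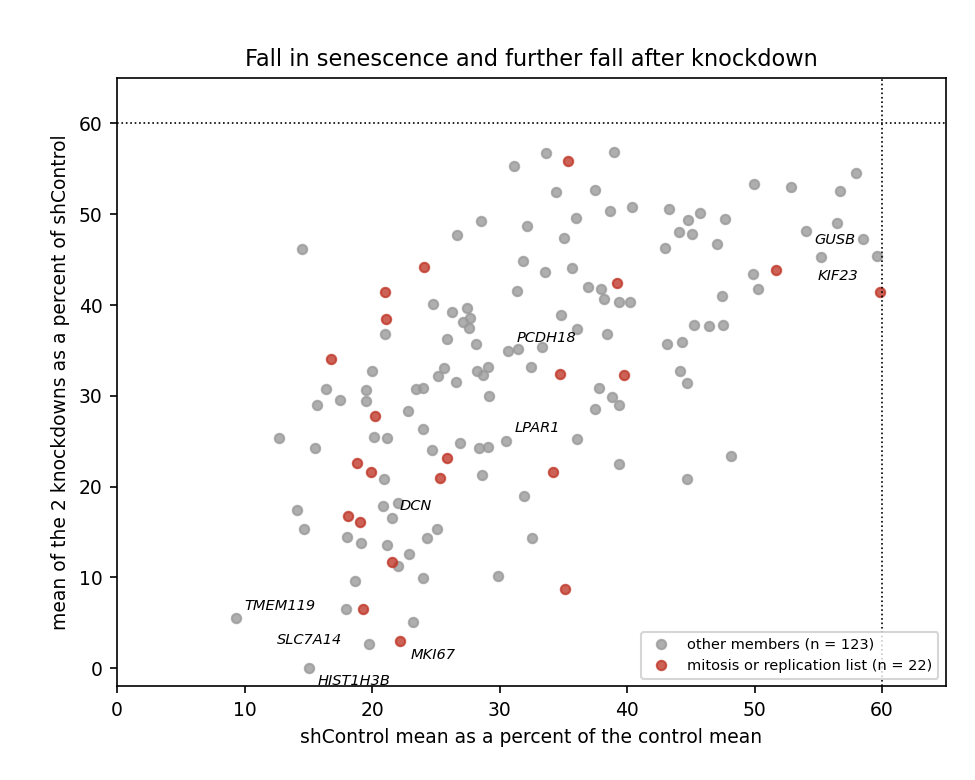
Each point is 1 of the 145 genes. The x axis gives the shControl mean as a percent of the control mean and the y axis the mean of the 2 knockdowns as a percent of shControl, dotted lines mark the 60% limits of the rule, and red points are the 22 genes on the mitosis or DNA replication lists. Points fill the lower left square that the rule allows, with MKI67, SLC7A14 and HIST1H3B near the floor and KIF23 and GUSB at the right limit.

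LPAR1, a G protein-coupled receptor for lysophosphatidic acid (hg19 chr9:113635532-113800758, minus strand), had the most counts. Its level was 1700.2 and 1809.7 CPM in control cells, 476.4 and 595.6 CPM with shControl, 129.5 and 152.8 CPM with shMETTL3, and 125.5 and 129.7 CPM with shMETTL14. The libraries of both knockdowns overlapped. EPB41L2, a membrane skeleton protein, was at 674.3 and 724.0 CPM in control cells, 214.1 and 310.2 CPM with shControl, 138.3 and 158.7 CPM with shMETTL3 and 119.4 and 136.0 CPM with shMETTL14. Its shControl libraries differed from each other by more than any pair of libraries within the other groups. GAS6, a secreted ligand of the TAM receptor tyrosine kinases, went from 849.8 and 814.4 CPM to 186.3 and 244.8 CPM with shControl, 88.9 and 66.4 CPM with shMETTL3 and 72.7 and 84.8 CPM with shMETTL14. JAZF1, a zinc finger cofactor, stood at 649.6 and 615.1 CPM in control cells and at 256.4 and 300.7 CPM with shControl. It had 154.8 and 151.9 CPM with shMETTL3 and 98.8 and 129.7 CPM with shMETTL14, so that the knockdown libraries did not overlap. PDZRN3, a ubiquitin ligase, fell from 460.1 and 488.4 CPM to 185.7 and 234.7 CPM with shControl and lay between 72.1 and 83.4 CPM in the 4 knockdown libraries. HEG1, a receptor at cell junctions, fell from 238.4 and 253.4 CPM to 81.9 and 104.7 CPM and lay between 30.8 and 50.3 CPM after knockdown.

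**Figure D2:**
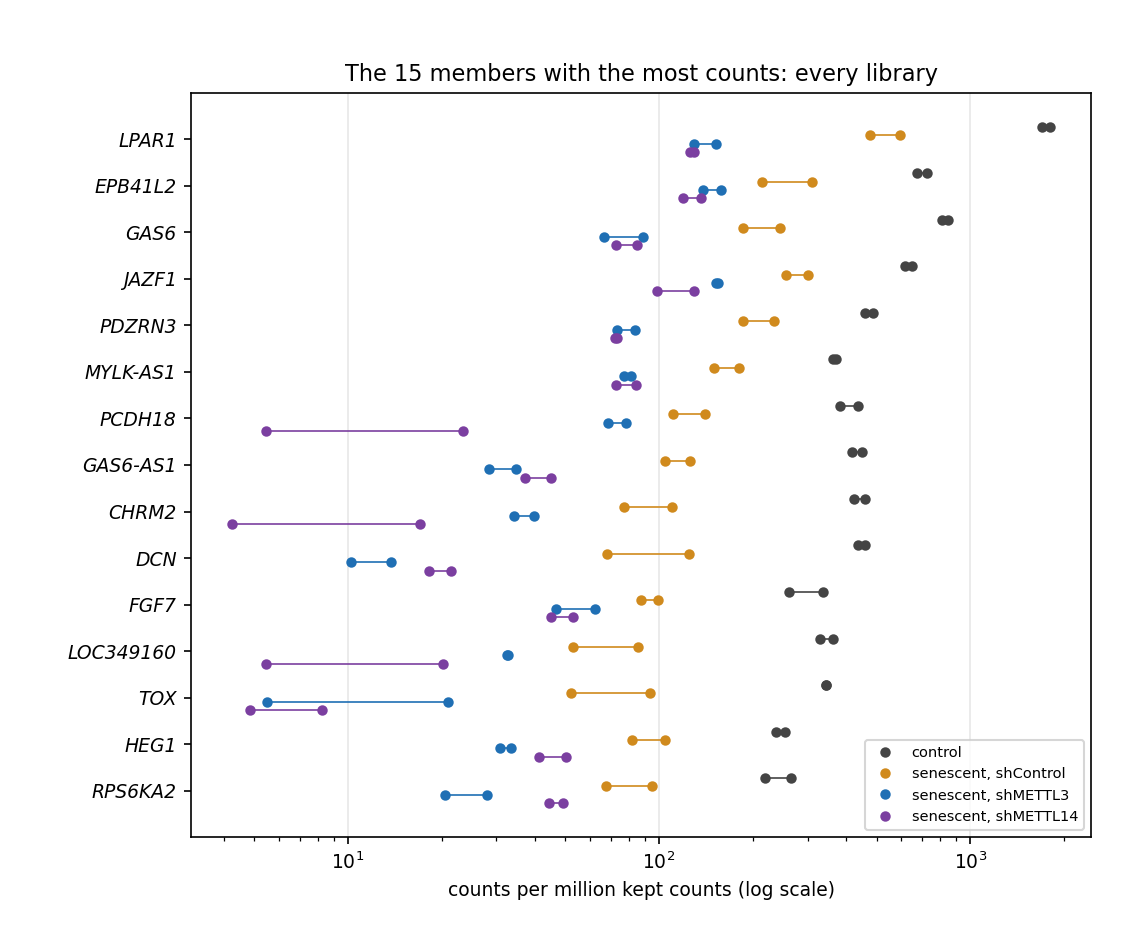
Each row is 1 of the 15 genes with the most counts, the x axis gives CPM on a log scale, points are the 2 libraries of a group and the line joins them. Control libraries lie at the right, shControl libraries in the middle and knockdown libraries at the left. PCDH18, CHRM2 and LOC349160 have their lowest points with shMETTL14, as do LPAR1, EPB41L2, JAZF1, PDZRN3, MYLK-AS1, FGF7 and TOX.

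To show where transcription of these genes begins, the 250 bases before the annotated start are printed for 3 members of high counts and 2 mitotic members, in lower case with CCAAT and TTTGAA (either strand) in capitals. TTTGAA is the core of the element known as CHR and CCAAT the NF-Y box, both known from cell cycle promoters. The sequences are from RefSeq (GRCh38.p14), read 5′ to 3′ on the gene's strand, and were found unchanged in hg19, at chr9:113800751-113801000 (minus) for LPAR1, chr4:138453649-138453898 (minus) for PCDH18, chr7:136553149-136553398 (plus) for CHRM2, chr10:129924688-129924937 (minus) for MKI67 and chr1:197115800-197116049 (minus) for ASPM. Save for CHRM2, the RefSeq starts differ from those of the counted rows. The windows reach 8 bases into the counted row of LPAR1, 4 bases into that of PCDH18 and 25 bases into that of ASPM. The window of MKI67 stops 219 bases before its counted row. LPAR1, PCDH18 and CHRM2 were taken in the order of counts, passing over members with no matched window or with a window over exons of GENCODE, and the mitotic members were picked after their letters and values were seen.
LPAR1: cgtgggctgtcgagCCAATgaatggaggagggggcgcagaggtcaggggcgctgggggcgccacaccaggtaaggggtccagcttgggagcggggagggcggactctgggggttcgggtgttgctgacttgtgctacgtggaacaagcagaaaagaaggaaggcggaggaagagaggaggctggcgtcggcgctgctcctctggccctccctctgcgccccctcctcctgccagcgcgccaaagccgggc
PCDH18: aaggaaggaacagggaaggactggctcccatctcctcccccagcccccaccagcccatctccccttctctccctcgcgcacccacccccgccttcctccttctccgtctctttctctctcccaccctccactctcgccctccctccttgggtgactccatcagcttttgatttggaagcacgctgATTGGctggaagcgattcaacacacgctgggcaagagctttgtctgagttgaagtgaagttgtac
CHRM2: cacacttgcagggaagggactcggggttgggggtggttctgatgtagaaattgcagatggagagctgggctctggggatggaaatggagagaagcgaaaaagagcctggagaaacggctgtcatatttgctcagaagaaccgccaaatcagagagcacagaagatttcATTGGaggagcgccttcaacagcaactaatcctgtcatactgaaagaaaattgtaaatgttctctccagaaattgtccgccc
MKI67: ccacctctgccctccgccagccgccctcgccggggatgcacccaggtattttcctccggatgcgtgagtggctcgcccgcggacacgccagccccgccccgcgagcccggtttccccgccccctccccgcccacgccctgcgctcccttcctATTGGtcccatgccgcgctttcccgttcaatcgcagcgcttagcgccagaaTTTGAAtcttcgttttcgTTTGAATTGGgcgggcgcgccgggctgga
ASPM: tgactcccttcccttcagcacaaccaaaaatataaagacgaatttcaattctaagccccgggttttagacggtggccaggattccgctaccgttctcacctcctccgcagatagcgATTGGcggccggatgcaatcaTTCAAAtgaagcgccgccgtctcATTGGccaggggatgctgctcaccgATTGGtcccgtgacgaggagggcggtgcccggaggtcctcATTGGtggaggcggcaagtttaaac

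A RefSeq promoter was matched in hg19 within 5000 bases of the counted start for 106 of the 145 genes and for 8601 of the 11060 genes with at least 100 counts. In these 250-base windows TTTGAA occurred on either strand in 10 of the 19 matched members from the mitosis and replication lists (52.6%), in 10 of the 87 other matched members (11.5%) and in 8.23% of all 8601 windows. CCAAT occurred in 11 of the 19 (57.9%), in 26 of the 87 (29.9%) and in 34.9% of all windows, and both motifs in 6 of the 19 (31.6%) and in 3.29% of all windows. In MKI67 the motifs share bases. GGGCGG, the GC box, was in 70.8% of the members' windows and 67.8% of all, TATAAA in 6.60% and 5.42%, the E-box CACGTG in 8.49% and 9.17%, and the AP-1 site TGACTCA in 0 of 106 and 2.52%. These shares are a description of letters in the windows and were not tested.

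Of the 11060 genes with at least 100 counts 1.31% were members, and 57 of the 145 members were on any of 24 gene lists. The list with the most members was mitosis. Of the 72 genes on a list of mitosis and G2/M genes, 36 had at least 100 counts, and 17 of these were members. MKI67, which codes for the proliferation antigen Ki-67 at hg19 chr10:129894925-129924468, had 224 and 201 counts in control cells, 25 and 53 with shControl, then 1 and 0 with shMETTL3 and 1 and 3 with shMETTL14. TOP2A, the topoisomerase that untangles sister chromatids, had 164 and 145 counts in control cells, 23 and 26 with shControl, then 3 and 0 with shMETTL3 and 1 and 3 with shMETTL14. Transcription of these genes was close to the counting floor in all 4 knockdown libraries. The kinesin KIF11, which separates spindle poles, kept more, with 75 and 68 counts in control cells, 7 and 18 with shControl, then 3 and 8 with shMETTL3 and 6 and 5 with shMETTL14. CCNB1, the cyclin that drives entry into mitosis, had 49 and 44 counts in control cells, 14 and 16 with shControl, then 8 and 7 with shMETTL3 and 8 and 6 with shMETTL14. KIF23, a kinesin of the cytokinetic midzone, had the smallest fall of the 145 genes in senescence, to 59.8% of control, but was at 33.2% and 49.6% of shControl after the knockdowns. Over the 17 genes the median level was 24.1% of control with shControl, 7.30% of control with shMETTL3 and 7.10% with shMETTL14. The other mitotic members were ANLN and PRC1 of cytokinesis, ASPM, TPX2, KIF20B and DIAPH3 of the spindle and cell cortex, CENPE, BUB1B and KNL1 of the kinetochore, NCAPG of condensin, ARHGAP11A, and LMNB1, the lamin known to be lost in senescence. LMNB1 went from 83 counts in each control library to 11 and 15 with shControl, then 2 and 0 with shMETTL3 and 5 and 2 with shMETTL14.

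The DNA replication and E2F list held 46 genes with at least 100 counts, of which 5 were members: RRM2, a subunit of ribonucleotide reductase, UHRF1, which couples replication to DNA methylation, the checkpoint adaptor CLSPN, the kinase MELK and the polymerase POLQ. RRM2 had 73 and 67 counts in control cells, 9 and 14 with shControl, then 6 and 0 with shMETTL3 and 2 and 3 with shMETTL14. UHRF1 had 68 and 94 counts, then 23 and 24, then 17 and 14 with shMETTL3 and 19 and 10 with shMETTL14, which is near the limit of the rule. The replicative histone genes HIST1H4E, HIST1H1E, HIST1H3B and HIST1H1B of the chromosome 6 cluster, which are on no list and were noted after their values were seen, were members too. Per length they had the highest control levels of the 145 genes, from 45.1 RPKM for HIST1H1E to 125.8 RPKM for HIST1H4E, where RPKM is CPM per kb of gene. HIST1H3B, a histone H3 gene, had 46 and 43 counts in control cells, 6 and 5 with shControl, and 0 in each knockdown library, which against 3 counts over a group is at least 4.59-fold lower with shMETTL3 and at least 3.83-fold lower with shMETTL14 than with shControl.

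Of the 42 matrix glycoproteins and crosslinkers with at least 100 counts 5 were members, and of the 27 such collagens 2. DCN, the collagen-binding proteoglycan decorin (hg19 chr12:91537054-91576901), was at 459.0 and 436.9 CPM in control cells, 68.1 and 125.0 CPM with shControl, 13.7 and 10.3 CPM with shMETTL3 and 18.2 and 21.5 CPM with shMETTL14. Its knockdown libraries kept 2.68% and 4.43% of the control level. FBLN1, a fibulin of elastic fibres, was at 192.7 and 185.1 CPM in control cells, 30.4 and 48.8 CPM with shControl, 8.23 and 7.32 CPM with shMETTL3 and 7.27 and 10.1 CPM with shMETTL14. EFEMP1, another fibulin, had 87 and 83 counts in control cells, 16 in each shControl library, 1 and 2 with shMETTL3 and 4 and 2 with shMETTL14. LOXL3, a lysyl oxidase that crosslinks collagen, and MATN2, a matrilin, kept more, with 10.1% and 10.2% of the control level with shMETTL3 and 11.2% and 16.7% with shMETTL14. The collagens COL14A1 and COL15A1, which decorate fibrils and basement membrane, were left at 2.00% and 2.45% of control with shMETTL3 and at 2.95% and 2.05% with shMETTL14. LTBP4, which tethers latent TGF-beta in the matrix, went from 124.5 and 100.4 CPM to 25.1 and 39.3 CPM with shControl, 5.49 and 3.42 CPM with shMETTL3 and 9.09 and 9.49 CPM with shMETTL14. LAMA5, a laminin chain, fell to 45.3% of control with shControl and to 12.5% and 21.8% of control with shMETTL3 and shMETTL14.

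Among adhesion genes, PCDH18, a protocadherin (hg19 chr4:138440073-138453652), was at 382.8 and 435.9 CPM in control cells, 111.0 and 140.2 CPM with shControl, 78.5 and 68.4 CPM with shMETTL3 and 5.46 and 23.4 CPM with shMETTL14. The libraries of the knockdowns were far apart, and the shMETTL14 libraries also differed from each other. CLDN11, a tight junction claudin, was at 266.8 and 247.1 CPM in control cells, 30.4 and 49.5 CPM with shControl, 3.29 and 11.2 CPM with shMETTL3 and 9.70 and 14.5 CPM with shMETTL14. JAM2, a junctional adhesion molecule, fell less, to 56.5% of control with shControl, 28.6% with shMETTL3 and 26.8% with shMETTL14. ITGA8, the integrin subunit known from mesenchymal and contractile cells, had 39 and 58 counts in control cells, 16 and 14 with shControl, then 8 and 13 with shMETTL3 and 0 and 2 with shMETTL14. NTN4, a netrin that binds laminin, fell from 128.3 and 138.8 CPM to 24.4 and 53.3 CPM with shControl and to 6.33 to 15.9 CPM in the knockdown libraries.

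**Figure D3:**
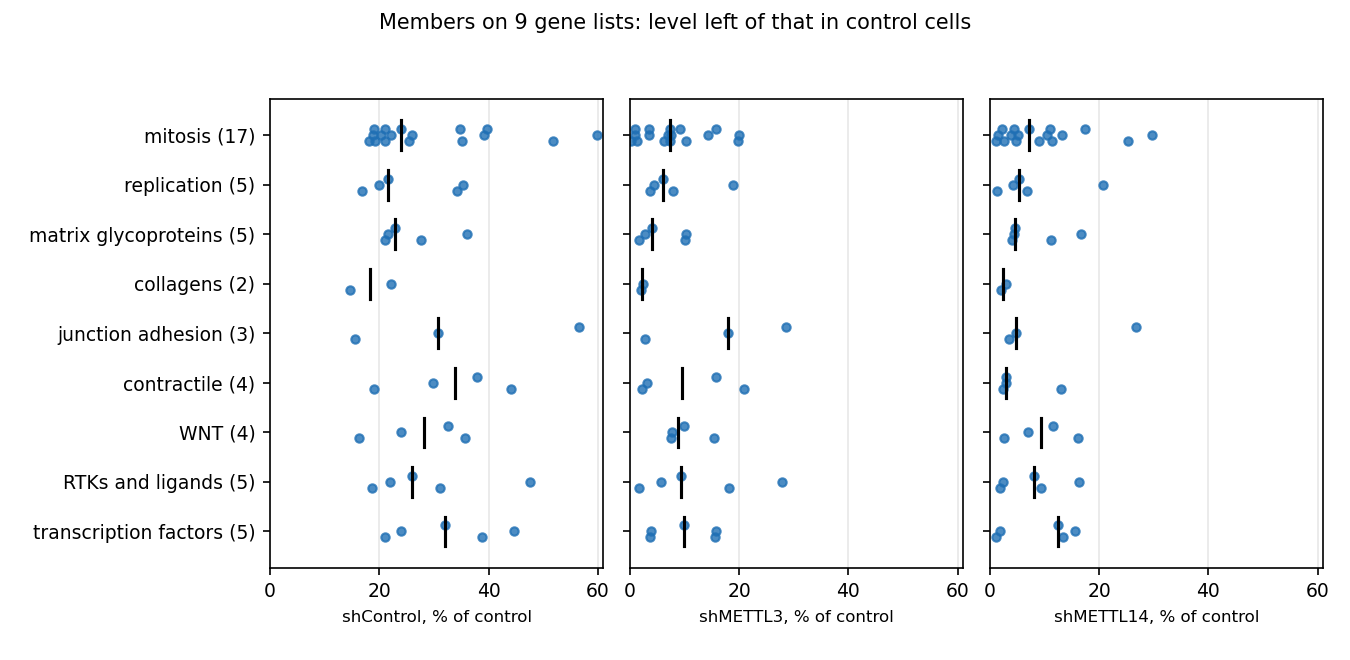
Each point is a member on 1 of 9 gene lists, with the number of members in brackets, and the x axis of each panel gives its mean level in shControl, shMETTL3 or shMETTL14 cells as a percent of the control mean. The vertical bars are medians, for mitosis 24.1%, 7.30% and 7.10%, and the collagens lie lowest with shMETTL3 at a median of 2.22%.

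Of the list of receptor tyrosine kinases and ligands, GAS6, FGF7, PDGFD, KIT and PDGFRL were members. FGF7, a growth factor that fibroblasts supply to epithelium, was at 262.5 and 337.5 CPM in control cells, 99.1 and 87.5 CPM with shControl, 46.7 and 62 CPM with shMETTL3 and 52.7 and 44.9 CPM with shMETTL14. PDGFD, a ligand of the PDGF receptors, was at 95.6 and 112.0 CPM, then at 16.5 and 29.2 CPM with shControl, 3.84 and 7.81 CPM with shMETTL3 and 1.82 and 3.16 CPM with shMETTL14. Both ligands are known to act on neighbouring cells. KIT, the receptor of stem cell factor, had 52 and 72 counts in control cells, 8 and 11 with shControl and 0 to 2 in the knockdown libraries. PDGFRL, a PDGF receptor-like protein, had 32 and 40 counts in control cells, 15 and 13 with shControl, then 14 and 6 with shMETTL3 and 2 and 3 with shMETTL14. Of the WNT pathway, the receptors FZD7, FZD2 and ROR2 and the dishevelled partner DAAM2 were members. FZD7 was at 109.5 and 98.3 CPM in control cells, 32.4 and 41.9 CPM with shControl and between 15.9 and 17 CPM in the 4 knockdown libraries. ROR2, the WNT5A receptor, was at 95.6 and 97.3 CPM in control cells, 11.9 and 19.7 CPM with shControl, 7.14 and 7.32 CPM with shMETTL3 and 3.03 and 1.90 CPM with shMETTL14. On no list were CHRM2 and RPS6KA2. CHRM2, a muscarinic acetylcholine receptor at hg19 chr7:136553399-136701771, was at 458.5 and 424.3 CPM, then 77.3 and 109.7 CPM with shControl, 39.5 and 34.2 CPM with shMETTL3 and 4.24 and 17.1 CPM with shMETTL14. RPS6KA2, a kinase downstream of ERK, fell from 265.2 and 218.7 CPM to 67.4 and 95.1 CPM with shControl, and was lower with shMETTL3 (28.0 and 20.5 CPM) than with shMETTL14 (49.1 and 44.3 CPM).

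The list of mesenchymal and lung transcription factors gave TOX and HMGB2, both HMG-box proteins, NFIX, TCF21 and PRRX2, of which TCF21 is known as a fibroblast lineage factor and PRRX2 as a mesenchymal homeobox gene. TOX was at 343.0 and 344.9 CPM in control cells, 52.2 and 93.2 CPM with shControl, 5.49 and 21.0 CPM with shMETTL3 and 4.85 and 8.22 CPM with shMETTL14. NFIX was at 173.9 and 139.3 CPM, then 41.6 and 59.0 CPM, and lay between 22.0 and 27.3 CPM in the knockdown libraries. PRRX2 had 50 and 56 counts in control cells, 7 and 14 with shControl, then 2 in each shMETTL3 library and 1 and 0 with shMETTL14. The contractile list gave LMOD1, a leiomodin, MRVI1, a cGMP kinase substrate of smooth muscle, the SRF coactivator MYOCD, and ITGA8. LMOD1 had 136 and 103 counts in control cells, 22 and 37 with shControl, then 1 and 7 with shMETTL3 and 3 in each shMETTL14 library. MYOCD had 42 and 38 counts, then 14 and 15, then 6 and 7 with shMETTL3 and 5 and 4 with shMETTL14. The lipid list gave ELOVL2, a fatty acid elongase, and SORL1, a sorting receptor, and the sulfation list NDST3, a heparan sulfate sulfotransferase, with 1.51%, 7.44% and 12.5% of the control level left with shMETTL3 and 5.46%, 10.3% and 8.08% with shMETTL14. The genes with the lowest shControl share of control were TMEM119 at 9.35%, PODN, a small proteoglycan, at 12.7%, HJURP, a chaperone of centromeric histone, at 14.1%, MRVI1-AS1 at 14.5% and COL15A1 at 14.7%.

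Of the 145 genes, 129 were protein-coding, 14 (9.66%) noncoding and 2 pseudogenes, against 6.62% noncoding among the 11060 genes with at least 100 counts and 9.24% among the 1580 genes that met the senescence step but are not members. CARMN hosts the miR-143 and miR-145 hairpins, and MIRLET7BHG those of let-7a-3 and let-7b, and all 4 hairpins lay inside the counted rows on the host's strand in hg19. To name what these transcripts can yield, the RefSeq mature miRNAs are printed with the seed, bases 2 to 8, in capitals, although mature miRNAs were not measured.
hsa-miR-143-3p: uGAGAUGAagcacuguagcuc
hsa-miR-145-5p: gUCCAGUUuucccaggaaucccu
hsa-let-7a-5p: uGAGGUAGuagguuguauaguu
hsa-let-7b-5p: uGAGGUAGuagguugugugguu
The let-7 miRNAs share the seed GAGGUAG, while the others have seeds of their own. CARMN, known from smooth muscle and fibroblasts, had 151 and 140 counts in control cells, 17 and 30 with shControl, then 8 and 20 with shMETTL3 and 2 and 5 with shMETTL14. MIRLET7BHG had 90 and 66 counts, then 11 and 16, then 12 and 0 with shMETTL3 and 4 and 6 with shMETTL14. The shMETTL3 libraries of both hosts thus differed widely. MIR924HG on chromosome 18, the host of miR-924 by its name, had 151 and 175 counts in control cells, 19 and 23 with shControl, then 7 and 13 with shMETTL3 and 6 and 3 with shMETTL14.

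The 9 plotted lists were read over all their tested genes with edgeR's quasi-likelihood test and Benjamini-Hochberg adjustment at a threshold of 0.05. Over the 12844 genes tested, 13.3% were called lower and 13.3% higher in shControl against control cells, 11.2% lower and 12.3% higher in shMETTL3 against shControl, and 12% lower and 9.15% higher in shMETTL14 against shControl. The 145 genes were called lower in 132, 103 and 111 cases in these comparisons, which the rule used, so nothing is read from these counts. The same holds for the lists, whose counts include their members and would lose genes that fell if the members were left out. Of the 64 tested mitosis genes, 47 were called lower and 0 higher in senescence, 23 lower and 1 higher with shMETTL3, and 26 lower and 1 higher with shMETTL14. Their median log2 differences were -1.72, -1.29 and -1.54. The 58 replication genes had 23 lower and 2 higher in senescence, 10 lower and 2 higher with shMETTL3 and 9 lower and 0 higher with shMETTL14. The 35 WNT genes had 13 lower and 6 higher in senescence, 4 lower and 10 higher with shMETTL3, and 13 lower and 2 higher with shMETTL14, and the 4 members made up the 4 that were lower with shMETTL3. Of the 48 matrix glycoproteins and crosslinkers, 20 were lower and 6 higher in senescence, 10 lower and 9 higher with shMETTL3 and 21 lower and 1 higher with shMETTL14. The 27 collagens had 12 lower and 5 higher, 6 lower and 8 higher, and 17 lower and 1 higher in the same order. Of the 69 transcription factors, 34 were lower and 9 higher in senescence, 11 lower and 22 higher with shMETTL3 and 23 lower and 11 higher with shMETTL14. The 32 cadherins and junction adhesion genes had 14 lower and 6 higher in senescence, 3 lower and 9 higher with shMETTL3, and 7 lower and 7 higher with shMETTL14. The 41 receptor tyrosine kinases and ligands had 16 lower and 12 higher, 15 lower and 4 higher, and 20 lower and 2 higher in the same order. The 60 contractile genes had 35 lower and 4 higher, 24 lower and 7 higher, and 19 lower and 6 higher. No member was on the list of SASP cytokines and proteases, of which 37 of 52 tested genes were called higher in senescence, nor on 7 other lists, among them interferon-stimulated genes and m6A writers, readers and erasers. Of the interferon and m6A lists, 25 and 21 genes had at least 100 counts, and only 1.31% of all such genes were members. The lists are also not complete, since IFITM2, interferon-induced by its name, and SLC7A14 are members on no list. Nothing is read from the lists without a member.

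The rule set no limit on the knockdowns against each other, but it capped the mean of each and placed all 4 libraries below shControl, which bounds how far they could differ. The comparison of shMETTL14 with shMETTL3 is therefore not free of the choice, and nothing is read from the members' shares against those of all genes. Over all 12844 tested genes, 18.7% were called lower and 16.5% higher in shMETTL14 than in shMETTL3 cells (edgeR quasi-likelihood test, adjusted p below 0.05). Of the 145 genes, 15 (10.3%) were called lower and 3 (2.07%) higher, and 127 were not called. All had passed the filter on low counts in the fit over 8 libraries, and with only the 4 knockdown libraries 62 of them passed, so the others passed through groups in which the rule makes them high. ITGA8, OLFML2A, CARMN, PDGFRL and IQGAP3 were not tested in that fit, in which 8 genes were called lower and 1 higher. The median log2 difference was -0.18 over the members and 0.01 over all genes tested, and 85 of the 145 values were below 0. With scaling to the kept library size in place of TMM, the median over all genes was 0.22 and that over the members 0.02, so the members lay 0.19 below all genes with TMM and 0.20 below with library size, while the sign of their own median turned. With a library left out, the members' median minus that of all genes ran from -0.264 (without shMETTL14 replicate 2) to -0.075 (without shMETTL3 replicate 1). Counts were small: 41 of the 145 genes had at least 10 counts in each knockdown library, and of these 6 (14.6%) were called lower and 2 (4.88%) higher, against 21.3% and 17.2% of the 9952 tested genes with such counts. For the 127 genes not called, the 95% interval of the log2 difference reached a median of 1.30 to each side, and it lay within 1 on both sides for 22 of them.

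PCDH18 differed most among the members of many counts, with a log2 difference of -2.56 (SE 0.29, edgeR adjusted p 1.489e-07). CHRM2 followed with -2.0 (SE 0.33) and LOC349160, which shares bases with it, with -1.55 (SE 0.34). In each of them the shMETTL14 replicate 1 library was lower than replicate 2 by a factor larger than that between the shMETTL3 libraries, but both lay below both shMETTL3 libraries. Without shMETTL14 replicate 1 the differences were -1.86 for PCDH18, -1.32 for CHRM2 and -0.90 for LOC349160, and without replicate 2 they were -3.93, -3.29 and -2.76. DENND2A, a guanine exchange factor, lay at 32.4 and 29.8 CPM with shMETTL3 and 12.1 and 17.1 CPM with shMETTL14, a log2 difference of -1.29 (SE 0.26). MUSK, a receptor tyrosine kinase of the neuromuscular junction, lay at 36.2 and 29.3 CPM against 15.2 and 19.0 CPM (log2 difference -1.14, SE 0.24), and PHTF2 at 37.3 and 40.5 CPM against 24.3 and 20.9 CPM (log2 difference -0.99, SE 0.22). These 3 genes kept their call in each of the 16 other fits that were made. JAZF1 differed by -0.63 (SE 0.16) and EPB41L2 by -0.42 (SE 0.17). On low counts, ITGA8, OLFML2A, CARMN, PDGFRL, ROR2, CRISPLD2 and SLX4IP were also called lower with shMETTL14, with log2 differences from -3.18 to -0.91. The 95% interval of ITGA8, with 2 counts in the shMETTL14 group, ran from -5.14 to -1.52, and its difference was -2.25 without shMETTL14 replicate 1, while without replicate 2 no count was left. Without shMETTL14 replicate 1 or 2, the difference of CRISPLD2 was -0.73 or -2.47. That of CARMN was -1.15 without shMETTL3 replicate 2 and -2.70 without shMETTL14 replicate 2, and that of PDGFRL -1.10 without shMETTL3 replicate 1. The calls of EPB41L2, SAMD12 and CRISPLD2 were each missing in 12 of those 16 fits, that of IQGAP3 in 9, of PDGFRL in 8 and of SLX4IP in 6. Without shMETTL14 replicate 1, the calls of ITGA8, OLFML2A, CARMN, JAZF1 and RPS6KA2 were missing as well, and 7 genes were called lower in place of 15. The genes higher with shMETTL14 were RPS6KA2 at 0.75 (SE 0.23), SAMD12 at 0.71 (SE 0.28), and IQGAP3, with 0 counts in both shMETTL3 libraries and 3 in each shMETTL14 library, at least 2.40-fold higher against 3 counts over the group. None of them was called higher with DESeq2 or at a threshold of 0.01.

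**Figure D4:**
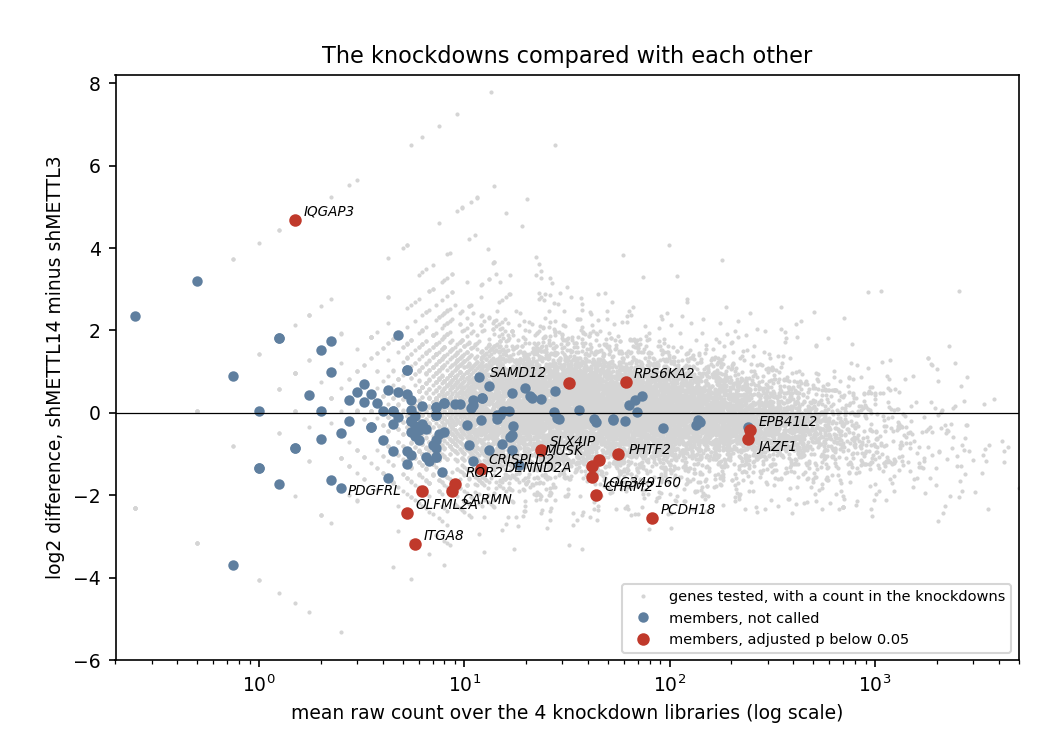
The x axis gives the mean raw count over the 4 knockdown libraries on a log scale and the y axis the fitted log2 difference, shMETTL14 minus shMETTL3, with grey dots for the tested genes, blue points for members not called and red points for the 18 called members. HIST1H3B, with no count in the knockdowns, is not drawn, and most red points lie below 0, from EPB41L2 at -0.42 to ITGA8 at -3.18.

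The libraries of the shControl group differed in these genes in a way the rule did not ask for. In shControl replicate 2, 115 of the 145 genes (79.3%) had a higher CPM than in replicate 1, against 53.0% of the 11060 genes with at least 100 counts, and the median log2 difference between the replicates was 0.41 for the members and 0.02 for all. MRVI1 for example had 28 counts in replicate 1 and 77 in replicate 2, NTN4 37 and 84, and DCN 103 and 197. Replicate 2 was the higher one for 19 of the 22 mitosis and replication members and for 96 of the 123 others. Among the 1580 genes that met the senescence step but are not members, 68.9% were higher in replicate 2, with a median of 0.18. In the control group, 44.8% of the members were higher in replicate 2, in the shMETTL3 group 40% and in the shMETTL14 group 54.5%, with median log2 differences of -0.03, -0.12 and 0.05. Over the 11060 genes these shares were 49.4%, 45.0% and 47.9%. Without shControl replicate 1 the rule was met by 180 genes, of which 123 are among the 145, and without shControl replicate 2 by 117, of which 110 are.

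**Figure D5:**
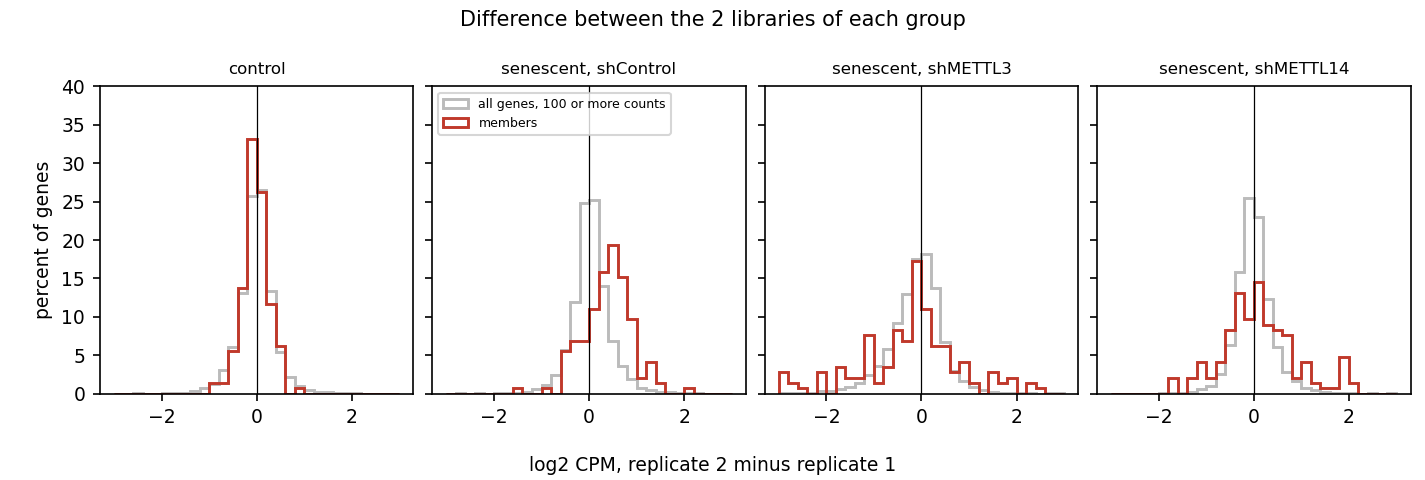
Each panel is a group, the x axis gives the log2 difference in CPM (0.5 added) between replicate 2 and replicate 1, values beyond 3 are drawn at the edge, and the y axis gives the percent of genes, in red for the 145 members and in grey for the 11060 genes with at least 100 counts. In the shControl panel the red line is shifted to the right, with a median of 0.41 against 0.02.

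Several members lie in the same place in the genome. Of the 145 genes, 18 shared bases with another member, so that they stand for 136 separate loci, and 27 shared bases with some row of at least 100 counts. The counts did not separate strands: in 313 of 315 pairs in which a gene of at least 100 counts lay inside a row on the opposite strand, the outer row had no fewer counts in any library. The values of GAS6 and GAS6-AS1, CHRM2 and LOC349160, PDZRN3 and LOC101927296, MRVI1 and MRVI1-AS1, SLC7A14 and LOC101928583, NTN4 and PGAM1P5, LOXL3 and DOK1, PRC1 and PRC1-AS1, and PIR and PIR-FIGF are therefore not independent. MYLK-AS1, with 369.9 and 362.8 CPM in control cells and 72.7 to 84.3 CPM in the knockdown libraries, shares 18523 bases with MYLK, and FGF7 lies wholly inside FAM227B, so these cannot be told apart from their partners either. The same holds for ARPIN, which lies wholly inside the nonmember C15orf38-AP3S2 on the same strand. LOC101927870 shares 61.4% of its bases with the nonmember RELN. DLEU1, NCAPG, PITX1, DAAM2, KIF23 and LOXL3 share 0.54% to 15.2% of their bases with other nonmember rows of at least 100 counts. Apart from overlaps, 24 of the 145 genes (16.6%) had a member of another locus within 500 kb, against 8.37% of the other genes with at least 100 counts. Both rows of an overlapping pair count here, such as CHRM2 and LOC349160 near PTN, and each neighbouring pair counts from both sides. The 24 genes are therefore not 24 separate places, and the difference between the shares was not tested. CLDN11 and SLC7A14 lay 24.9 kb apart on chromosome 3, LPAR1 and MUSK 72.3 kb apart on chromosome 9, LOC349160 and PTN, a heparin-binding growth factor, 63.0 kb apart on chromosome 7, EEPD1 and ANLN 88.3 kb apart on chromosome 7, FZD7 and CDK15 139.0 kb apart on chromosome 2, BUB1B and KNL1 373.1 kb apart on chromosome 15 and RECK and MELK 448.4 kb apart on chromosome 9. USP44 lay 97.8 kb from PGAM1P5 on chromosome 12, FBLN1 484.9 kb from MIRLET7BHG on chromosome 22, and on chromosome 6 HIST1H1E lay 47.5 kb from HIST1H4E and 124.3 kb from HIST1H3B.

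The members were longer genes. Their median length was 62327 bases, with 28502 and 126891 bases at the quartiles, against a median of 36842 bases over the 11060 genes, and 47 of the 145 (32.4%) spanned at least 100 kb against 22.0%. The 1580 genes that met the senescence step but are not members had a median of 52500 bases and 32.1% of at least 100 kb. The median control level was 1.00 RPKM over the members and 1.09 RPKM over the 11060 genes. By this measure the highest members beyond the histones were LOC728392 at 36.4 RPKM, PCDH18 at 30.1 RPKM, FZD7 at 27 RPKM, GAS6 at 19.1 RPKM and CLDN11 at 16.2 RPKM, and the lowest was PATJ at 0.0377 RPKM.

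Some members reached the rule by a narrow margin. At the senescence limit, KIF23, GUSB and PHTF2 lay just inside at 0.60, 0.60 and 0.59 times control, and TMEM237, HNRNPA1P10 and SLC44A2 just outside at 0.60, 0.60 and 0.62. At the shMETTL3 limit, PHTF2, HIST1H4E and PATJ lay inside at 0.60, 0.59 and 0.59 times shControl, and FOXF2, NXN and CTDSP2 outside at 0.61, 0.62 and 0.62. At the shMETTL14 limit, CAND2, DENND3 and UHRF1 lay inside at 0.60, 0.60 and 0.59, and USP2-AS1, CNKSR3 and THY1 outside at 0.61, 0.61 and 0.61. THY1 is a fibroblast surface marker and FOXF2 a lung mesenchymal factor, and neither is a member. At the other end, 25 of the 145 genes had a knockdown library with no count, and 60 had fewer than 10 counts in every knockdown library. SLC7A14, an amino acid transporter family member, had 156 and 139 counts in control cells, 20 and 28 with shControl, then 3 and 0 with shMETTL3 and 0 in both shMETTL14 libraries, at least 16.7-fold lower than with shControl. TMEM119 and ADAMTS8 had no count with shMETTL3, at least 3.76-fold and 6.26-fold lower than with shControl, and 1 and 2 counts in all with shMETTL14. KNL1, HIST1H1B and COL14A1 were left with 1, 1 and 6 counts in the shMETTL3 libraries together.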

How the data were processed

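The authors aligned fastGRO-seq reads to hg19 with STAR, and the deposited values are raw HOMER counts over whole gene bodies, 1 row a gene, with no normalization. deepTools 3.3 is named in the submitters' processing notes. Totals were 14897360 to 20306299 counts a library. Groups came from the labels, and the study calls its 2 libraries a group biologically independent; p-values measure the spread between these libraries only. The members, lists and tests were chosen with earlier results of these data known. All 27945 genes entered edgeR 4.0.16 (R 4.3.3, limma 3.58.1), with filterByExpr (minimum count 10), TMM scaling, 1 quasi-likelihood fit over 8 libraries and Benjamini-Hochberg adjustment at 0.05, after a test on simulated counts. DESeq2 1.42.0, other scalings, filters and limits, a replicate block and each library left out were alternatives. Named genes were the 15 members of most counts, the 5 lowest after senescence, the 10 lowest after knockdown, list members, the 8 largest calls in each direction between knockdowns, overlapping or neighbouring members and those nearest each limit; CRISPLD2, DENND2A, SLX4IP, histones and miRNA hosts were named after their values were seen. Promoter windows over GENCODE exons were not printed, save for 25 bases of ASPM. Promoters (GRCh38.p14) and miRNAs are RefSeq's, for 109 members with a promoter entry. Floors (3 counts) cover counting error only, and edgeR's intervals include the spread between libraries.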

Additional observations from a re-analysis of the deposited data

Results flagged for a closer look

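Between the knockdowns, 18 of the 145 genes differed by edgeR's quasi-likelihood test after Benjamini-Hochberg adjustment, against 18.7% lower and 16.5% higher of all genes tested. ITGA8, OLFML2A, CARMN, PDGFRL and IQGAP3 passed the filter on low counts only through the groups in which the rule makes them high, and with the 4 knockdown libraries alone they were not tested, while 8 members were lower and 1 higher. The log2 differences, shMETTL14 minus shMETTL3, were -3.18 for ITGA8, -2.56 for PCDH18, -2.44 for OLFML2A, -2.0 for CHRM2, -1.90 for CARMN, -1.90 for PDGFRL, -1.72 for ROR2, -1.55 for LOC349160 and -1.36 for CRISPLD2. They were -1.29 for DENND2A, -1.14 for MUSK, -0.99 for PHTF2, -0.91 for SLX4IP, -0.63 for JAZF1 and -0.42 for EPB41L2. Higher values were found for SAMD12 at 0.71, RPS6KA2 at 0.75 and IQGAP3, at least 2.40-fold higher. DESeq2 called none of these genes higher. CHRM2 and LOC349160 share bases and are not independent. Between the shMETTL14 libraries, replicate 2 was the higher one for 54.5% of the 145 genes and 47.9% of the 11060 genes with at least 100 counts. In 13 of the 15 genes that were lower, shMETTL14 replicate 1 lay below replicate 2, and the part of that library in the result is given by leaving it out: 7 genes were then called lower.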

How the results depend on the processing

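The rule was met by 145 genes. With ribosomal RNA kept in the library sum it was met by 70 (64 of the 145), with a limit of 0.7 by 242, with 200 summed counts by 85, and with a library left out by 107 to 180. TMM, DESeq2 or upper quartile scaling gave 134 to 137. Between the knockdowns, 15 members were called lower and 3 higher. With at least 10 counts in every library, 5 were lower (41 members tested), with only the 4 knockdown libraries 8 lower and 1 higher (62 tested), and with a threshold of 0.01, 9 and 0. Library size scaling gave 6 higher, and DESeq2 0 higher and 10 lower. With a library left out, 7 (without shMETTL14 replicate 1) to 18 were lower, and 0 (without shMETTL14 replicate 1) to 6 (without shMETTL3 replicate 1) higher, with 1 higher without either control library or shMETTL14 replicate 2. The members' median log2 difference of -0.18 became 0.0198 with library size scaling, -0.11 with 10 counts in every library, and -0.246 to -0.0272 with a library left out. Without an shControl library the median against shControl was -1.57 to -1.25 for shMETTL3 and -1.87 to -1.54 for shMETTL14. Of the refitted differences of the called genes, 209 kept the call, 64 lost it and 0 changed sign. The causes were not tested. The labels do not say whether replicate numbers pair the libraries. Correlations of deviations ran from -0.04 to 0.14, which cannot settle it, since counting noise in genes of few counts lowers them. With the replicate block 16 members were lower, 14 of them shared, and 3 higher. Depth limits the comparison, since 60 members had fewer than 10 counts in every knockdown library.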
